A study of Mus musculus with 2 samples.

Results

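The interleukin 1 (IL-1) pathway was described through 10 genes, Il1a, Il1b, Il1rn, Il1r1, Il1r2, Il1rap, Il18, Il18bp, Nlrp3 and Casp1, out of the 32285 genes of the deposited tables. They were picked by symbol, and each symbol matched a single row in both tables. All 10 were measured in each cell type and diet.

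IL-1α (Il1a) and IL-1β (Il1b) are alarm cytokines that drive inflammation, and IL-18 (Il18) is a relative best known for acting on lymphocytes. NLRP3 senses cell damage and crystals and assembles the inflammasome, in which caspase-1 (Casp1) cuts the precursors of IL-1β and IL-18 to their active forms, so that transcript levels do not show how much active cytokine is released. IL-1 is sensed by IL-1R1 (Il1r1) with its partner IL1RAP (Il1rap), and is held back by the receptor antagonist (Il1rn) and by the decoy receptor IL-1R2 (Il1r2), while the IL-18 binding protein (Il18bp) captures IL-18. In obese adipose tissue, macrophages are a well-known source of IL-1β.

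The cells were live eYFP+ cells of the stromovascular fraction (SVF, the non-adipocyte cells) of perigonadal white adipose tissue (gWAT) from male Cyp1a1 fate reporter mice, Cyp1a1Cre crossed to R26LSL-eYFP. In these mice Cre is driven by the promoter of Cyp1a1, a target of the aryl hydrocarbon receptor (AHR). As a fate label, eYFP marks cells in which Cyp1a1 was on at or before collection, and cells that descend from them. Cells without eYFP are not in the data. The LFD group had 12 weeks of a diet with 10% fat and the HFD group 12 weeks of a diet with 60% fat. Both groups had been given FICZ, which activates the AHR, at a dose of 10 mg/kg, and tissue was taken 5 days later, so no group shows the tissue without FICZ. Mice were pooled within a diet, and each diet gave 1 library. Every comparison of diets below is therefore between a single pair of libraries, with no replicate and no test, and the 95% intervals cover counting error only.

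The LFD library held 114311020 UMIs (unique transcript molecules) and the HFD library 119498750, and 10216 LFD and 8537 HFD cells passed the study's filter with medians of 10636.5 and 13231 UMIs. Cells were sorted into 12 types from marker lists that hold none of the 10 genes. The names, all to be read as "-like" since they rest on markers alone, are keratin-low stromal, keratin-high mesothelial, cycling stromal, fibroblastic progenitor, endothelial, macrophage, dendritic, neutrophil, type 2 innate lymphoid (ILC2), T, B and plasma. They held between 54 neutrophils on HFD and 4338 keratin-low stromal cells on LFD. Leading genes matched most names, such as C1qa, C1qb and C1qc in macrophages, S100a8 and S100a9 in neutrophils and Cldn5 and Cdh5 in endothelial cells, but keratin-low stromal cells had none of their markers among their 10 leading genes. T cells also had the cytotoxic genes Gzma and Nkg7 among their leading genes. Another 888 LFD and 758 HFD cells carried markers of more than 1 lineage and were set aside. The stromal names are ranges of a marker count, and 1432 of 10457 stromal cells lay within 1 marker of the keratin-high limit, 641 within 1 marker of the fibroblastic limit and 632 within 1 marker of the cycling limit. Levels are given as CPM, UMIs of a gene per 1000000 UMIs of all cells of that type in a library. Since a 3' library gives a transcript 1 tag whatever its length, no length correction applies. The stromal genes Pdgfra, Wt1 and Lum were found in non-stromal types at 1.21 to 4.34% of their stromal level, and in LFD and HFD neutrophils at 13.5% and 11.4%, which was taken as the level of free RNA, whereas macrophage and neutrophil genes reached at most 0.239% elsewhere.

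On GRCm38 (positions looked up in GENCODE M21), the decoy receptor gene Il1r2 at chr1:40074079-40125231 and the receptor gene Il1r1 at chr1:40225080-40317257 lie near each other on the plus strand, while Il1a at chr2:129299610-129309972 and Il1b at chr2:129364570-129371139 lie near each other on the minus strand. Il1rn is on the same chromosome at chr2:24336853-24351494. The others are Il1rap at chr16:26581704-26730117, Il18 at chr9:50554827-50581840, Il18bp at chr7:102014885-102018690, Nlrp3 at chr11:59541568-59566956 and Casp1 at chr9:5298517-5307265. All 10 are protein-coding.

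Because FICZ acts through the AHR, the RefSeq promoter windows (GRCm38.p6, 250 bases before to 50 bases after a start) of the 10 genes, 14 in all, were searched on both strands for the AHR core GCGTG, the ETS core GGAAGT, the AP-1 site TGANTCA and the NF-kB site, which is given by its name alone. Shown are the windows of Il1r2 and Il1b, whose diets stood in opposite order in neutrophils and dendritic cells. Both are written 5′ to 3′ on the strand of the gene, with motif matches on either strand in capitals.
Il1r2 (chr1:40085843-40086142, plus strand): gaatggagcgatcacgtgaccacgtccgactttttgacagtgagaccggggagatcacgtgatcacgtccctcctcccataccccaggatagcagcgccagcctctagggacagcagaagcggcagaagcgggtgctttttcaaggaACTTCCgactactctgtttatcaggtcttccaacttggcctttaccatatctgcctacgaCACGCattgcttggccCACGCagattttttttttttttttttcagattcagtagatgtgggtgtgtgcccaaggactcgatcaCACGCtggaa
Il1b (chr2:129371090-129371389, minus strand): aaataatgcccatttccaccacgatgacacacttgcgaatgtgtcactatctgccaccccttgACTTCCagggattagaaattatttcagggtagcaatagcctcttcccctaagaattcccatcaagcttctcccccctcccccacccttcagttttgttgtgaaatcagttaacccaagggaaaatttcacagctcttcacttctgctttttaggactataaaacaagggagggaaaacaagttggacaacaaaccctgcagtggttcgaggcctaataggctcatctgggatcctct
The Il1r2 window lies inside the GENCODE gene span, downstream of its first base. It held 3 matches to the AHR core, all on the opposite strand and so written CACGC, and 1 to the ETS core, written ACTTCC. The Il1b window held no AHR core and 1 ETS core. The AHR core was found 4 times in the Il1rap window, 1 and 2 times in the windows of Il1r1 and 1 time in 1 of the 3 windows of Il1rn. Of all 32851 windows of this length, 32.4% held the AHR core, 23.8% the ETS core, 7.81% the AP-1 site and 8.46% the NF-kB site, so a match to the AHR or ETS core is common. AP-1 sites stood in the Il1a window and in 1 Il1rn window, and NF-kB sites in 1 window each of Il1r1 and Nlrp3. The windows of Casp1 and Il18 held none of these letters.

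The 10 genes differed in the cells that held them. Il1b, Il1rn, Nlrp3 and, with few UMIs, Il1a and Il1rap were at their highest in neutrophils. Il1r1, Il18 and Il18bp were highest in stromal cells, and Il1r2 stood in both camps. All 4 stromal types together held 91.7% of the Il1r1 UMIs on LFD and 88.2% on HFD, against 61.8% and 48.5% of the cells, but only 2.44% and 0.914% of the Il1b UMIs.

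**Figure D1:**
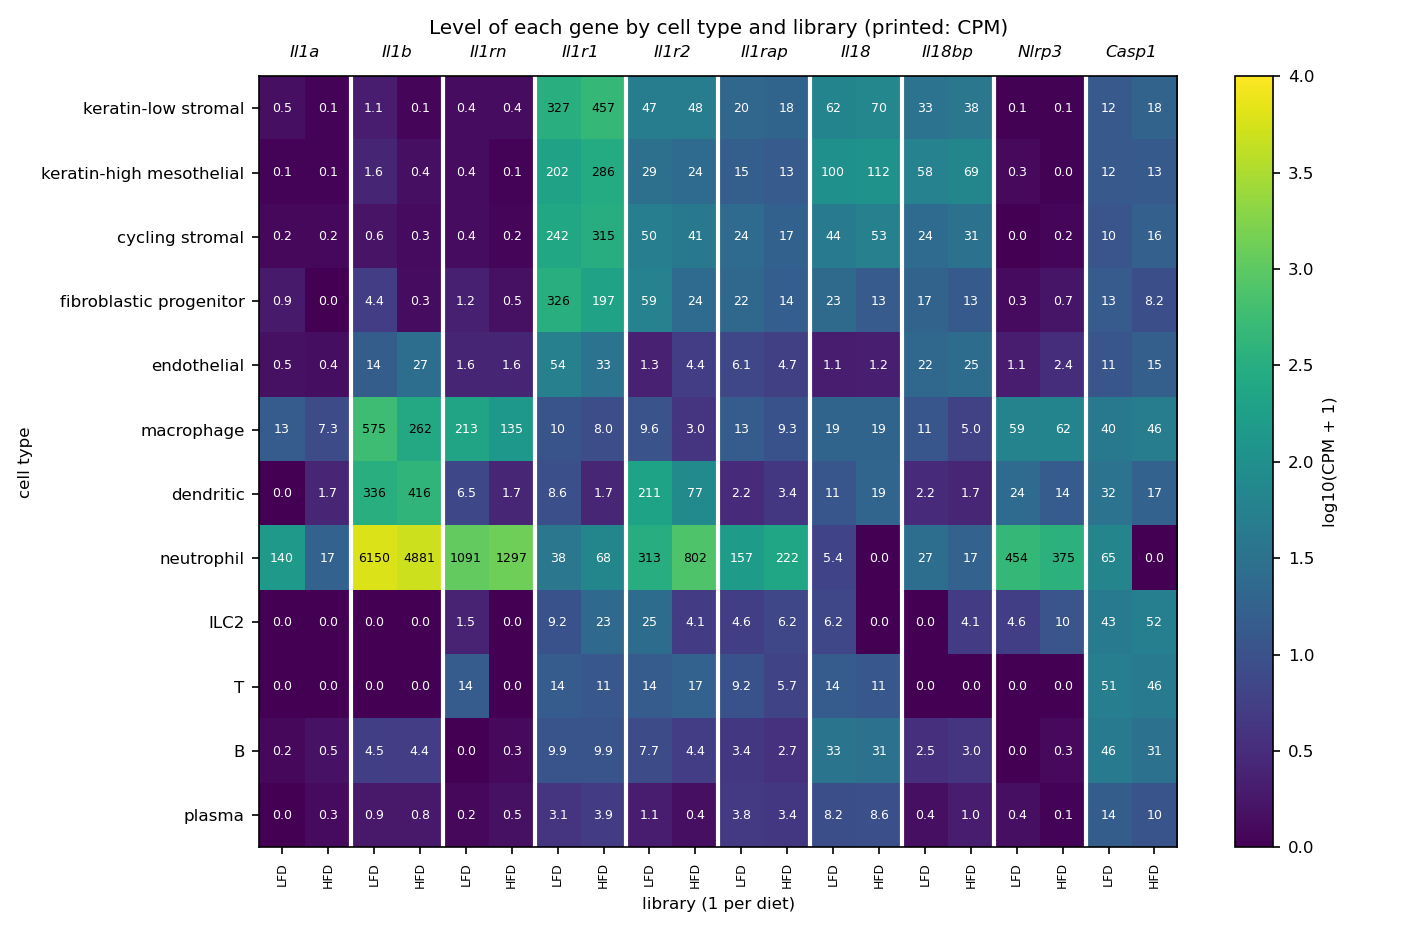
Level of each of the 10 genes in 12 cell types, with LFD and HFD libraries side by side; printed values are CPM and the colour is log10(CPM + 1). Il1b reached 6150 and 4881 CPM in neutrophils, while Il1r1 was between 197 and 457 CPM in the 4 stromal types.

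Il1b had the highest level of the 10 members in neutrophils, macrophages and dendritic cells. In neutrophils it was at 6150 CPM (5798–6518) on LFD and 4881 CPM (4331–5480) on HFD. Macrophages had 575 CPM (543–608) on LFD and 262 CPM (244–281) on HFD. Dendritic cells had 336 CPM (285–393) on LFD and 416 CPM (365–471) on HFD. On LFD the order ran from neutrophils to macrophages to dendritic cells, and on HFD dendritic cells stood above macrophages, with no overlap of the intervals between neighbours in either library. ILC2 and T cells had 0 Il1b UMIs in both libraries, which allows up to 4.62 and 6.18 CPM in ILC2 and 13.8 and 17.1 CPM in T cells.

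The HFD to LFD ratio of Il1b was 0.456 (0.416–0.499) in macrophages, 0.794 (0.695–0.904) in neutrophils and 1.24 (1.009–1.52) in dendritic cells. Only the first was past 1.5-fold, the size rule used here for genes with at least 50 UMIs over both libraries, and with whole clusters as types the neutrophil ratio was past it too (0.5998). Macrophages with an Il1b UMI made up 40.4% of these cells on LFD and 32.2% on HFD, where the median macrophage held 4448 and 6223.5 UMIs. With every cell thinned to 1000 UMIs, which left 459 and 458 cells, the shares were 26.4% (22.4–30.6%) and 15.3% (12.1–18.9%), so macrophages with Il1b were fewer in the HFD library at equal depth. B cells, which should lack the gene, had an Il1b UMI in 1.94% and 1.78% of cells, at medians of 4007 and 4178 UMIs. Neutrophils are shallow cells, with medians of 1229 and 1018.5 UMIs, yet 97.3% of them on LFD and 77.8% on HFD held an Il1b UMI, and thinned to 1000 UMIs 95.6% of 113 and 78.1% of 32 cells did.

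Il1rn, which encodes the antagonist, was also highest in neutrophils and macrophages, but not in dendritic cells. Neutrophils had 1091 CPM (945–1252) on LFD and 1297 CPM (1022–1623) on HFD, and macrophages had 213 CPM (194–234) and 135 CPM (122–148). Dendritic cells had 3 UMIs on LFD and 1 UMI on HFD, or 6.45 and 1.71 CPM, beside 156 and 243 UMIs of Il1b. There were thus 0.0192 (0.00392–0.0572) and 0.00412 (0.000104–0.0231) Il1rn UMIs per Il1b UMI in dendritic cells, against 0.371 (0.332–0.414) and 0.514 (0.455–0.580) in macrophages and 0.177 (0.152–0.206) and 0.266 (0.204–0.343) in neutrophils. In macrophages the intervals of the diets did not overlap. The Il1rn ratio of HFD to LFD there was 0.632 (0.551–0.724), nearer to 1 than that of Il1b.

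Il1a was scarce. It had 26 UMIs in LFD neutrophils and 1 in HFD neutrophils, or 140 and 17.1 CPM, and 28 and 22 UMIs in macrophages, or 13.4 and 7.29 CPM. The macrophage ratio was 0.543 (0.296–0.984), and the neutrophil ratio of 0.122 (0.00297–0.740) rested on fewer than 50 UMIs. Of the macrophages with Il1a, 16 of 20 on LFD and 10 of 18 on HFD also held Il1b, as did all 15 neutrophils on LFD and the 1 neutrophil on HFD. The 4 stromal types together held 32 of 122 Il1a UMIs on LFD (26.2%, 18.7–35.0%) and 8 of 59 on HFD (13.6%, 6.04–24.98%), at low levels per type. Keratin-low stromal cells had 24 and 3 of them, or 0.459 CPM (0.294–0.682) and 0.103 CPM (0.0212–0.301), where free RNA would give 0.0114 and 0.00235 CPM.

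Of the 7 members with enough UMIs in macrophages, 3 were lower on HFD past 1.5-fold, namely Il1b, Il1rn and Il1a, and none was higher. Over all 7519 genes counted in macrophages, 11.7% were past 1.5-fold either way and 3.5% were past it in the lower direction, and the median ratio of the 7 members was 0.691 against 1.05 for all genes. The intervals of Nlrp3 (1.05, 0.830–1.32), Casp1 (1.15, 0.872–1.53) and Il18 (0.992, 0.647–1.53) held 1. With the stricter cell filter Il1a (0.675) and Il1rn (0.721) were no longer past the limit, whereas Il1b was (0.427). Il1rap, at 0.691 and so just inside the limit, was past it as a mean over cells (0.555), with clusters as types (0.657) and with the wider margin (0.615). The summed level of 10 immediate early genes, which digestion of tissue can raise, was 3461 CPM on LFD and 3580 CPM on HFD in macrophages. Cycling markers summed to 34.5 and 127 CPM there (all 8 detected in each library), and their part in the macrophage ratios was not tested.

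Macrophages were then divided by which of 3 short marker lists had most UMIs in a cell. Lipid-associated cells (Trem2, Cd9, Spp1, Gpnmb, Lpl) were 391 of 468 macrophages on LFD and 372 of 466 on HFD. Monocyte-type cells (Ccr2, Ly6c2, Plac8, Chil3) were 11.8% (8.98–15.02%) on LFD and 4.51% (2.81–6.81%) on HFD, and resident cells (Lyve1, Folr2, Cd163, Timd4, Vsig4) were 3.21% (1.80–5.23%) and 13.5% (10.5–17.0%). The HFD library thus held a smaller share of monocyte-type and a larger share of resident macrophages.

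Il1b differed widely between these subsets. In monocyte-type cells it was at 1705 CPM (1547–1876) on LFD and 1227 CPM (1011–1475) on HFD, and in lipid-associated cells at 424 CPM (394–455) and 254 CPM (234–274). Resident cells had 7 Il1b UMIs on LFD and 4 on HFD, or 123 CPM (49.3–252) and 12.2 CPM (3.32–31.2). Within lipid-associated cells the ratio was 0.598 (0.537–0.665) and within monocyte-type cells 0.720 (0.580–0.888), both nearer to 1 than the 0.456 of all macrophages. Il1rn was at 219 CPM (198–242) and 152 CPM (137–168) in lipid-associated cells, a ratio of 0.695 (0.602–0.802). In monocyte-type cells it was at 222 CPM (167–289) on LFD and 43.4 CPM (11.8–111) on HFD, a ratio of 0.196 (0.0516–0.531) on 55 and 4 UMIs, below that of Il1b in the same cells. Nlrp3 in lipid-associated cells was at 59.0 CPM (48.2–71.4) and 64.0 CPM (54.6–74.5), and in monocyte-type cells at 68.5 CPM (39.9–109.7) and 119.5 CPM (59.6–213.7).

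**Figure D2:**
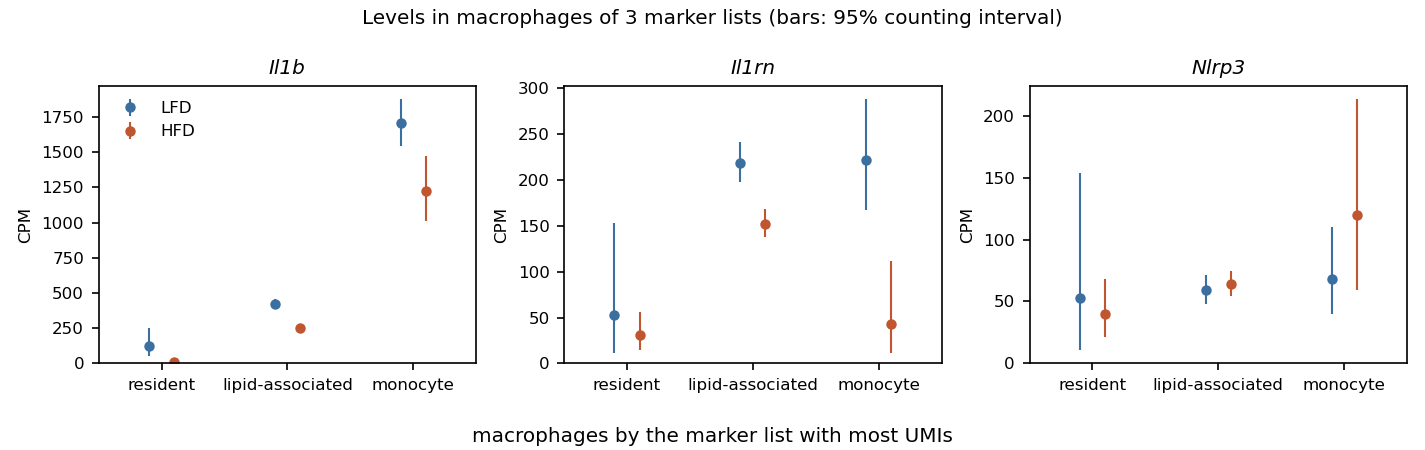
CPM of Il1b, Il1rn and Nlrp3 in resident, lipid-associated and monocyte-type macrophages of the LFD and HFD libraries, with 95% counting intervals as bars. Il1b stood at 1705 and 1227 CPM in monocyte-type cells and at 424 and 254 CPM in lipid-associated cells, and Nlrp3 intervals of the diets overlapped in each subset.

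Macrophages that held an Il1b UMI also differed from those without one in other members. Nlrp3 was at 95.2 CPM (75.5–119) with Il1b and 35.3 CPM (25.7–47.5) without it on LFD, and at 108.1 CPM (87.9–131) and 42.1 CPM (33.7–51.8) on HFD. The complement gene C1qa, a macrophage marker, was lower in cells with Il1b, at 1818 against 2929 CPM on LFD and 1909 against 2901 CPM on HFD. Il1rn showed no common direction, with 236 CPM (204–271) with and 198 CPM (174–224) without Il1b on LFD, and 103 CPM (83.1–125) and 149 CPM (133–166) on HFD. Cells with and without Il1b had median depths of 4518 and 4424 UMIs on LFD and 5736.5 and 6381 UMIs on HFD.

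Endothelial cells, which line vessels, had an Il1b ratio of 1.97 (1.35–2.87), from 13.9 CPM on LFD to 27.3 CPM on HFD. These values were carried by few cells, 14 of 649 on LFD and 8 of 603 on HFD, and the 3 highest cells held 36 of the 52 and 58 of the 69 UMIs. Without those 3 cells per library the levels were 4.31 and 4.38 CPM. Cells with an Il1b UMI had on average 1.64 and 1.38 of the 11 macrophage markers against 0.225 and 0.234 in the other endothelial cells, and when whole clusters were used as types the ratio was 0.105. In keratin-low stromal cells Il1b was at 1.11 CPM (58 UMIs) on LFD and 0.137 CPM (4 UMIs) on HFD, a ratio of 0.124 (0.0327–0.335), where free RNA would give up to 0.494 CPM on LFD and 0.173 CPM on HFD. Its intervals were 0.841–1.43 CPM and 0.0374–0.351 CPM.

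The inflammasome sensor gene Nlrp3 was highest in myeloid cells and near 0 in the stroma. It was at 454 CPM (362–561.5) and 375 CPM (235–568) in neutrophils, 59.5 CPM (49.5–70.9) and 62.3 CPM (53.7–71.9) in macrophages, and 23.7 and 13.7 CPM in dendritic cells on 11 and 8 UMIs. Over all 10457 stromal cells it had 7 UMIs on LFD and 9 on HFD, or 0.0841 and 0.130 CPM. Casp1, in contrast, was found in every type on LFD, although LFD neutrophils had 12 UMIs (64.8 CPM) and HFD neutrophils 0, which allows up to 51.2 CPM. ILC2, B cells and macrophages had between 31.3 and 51.5 CPM, with most intervals overlapping, and stromal types had between 8.16 and 17.8 CPM. Stromal cells therefore carried Casp1 but next to no Nlrp3.

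The Casp1 ratio was 1.46 (1.30–1.64) in keratin-low stromal and 1.49 (1.22–1.83) in cycling stromal cells, just under the 1.5-fold limit, and 1.04 (0.838–1.29) in keratin-high mesothelial cells. Among cells with like numbers of mesothelial markers, given below, the ratio was past the limit, between 1.55 and 1.71, in keratin-low cells. In keratin-high cells it was 0.872 and 1.51. In B cells it was 0.685 (0.539–0.865), from 45.7 to 31.3 CPM, just inside the limit in the other direction. Erythroid markers in B cells summed to 49.5 CPM on LFD (4 of 5 detected) and 255 CPM on HFD (all 5 detected), and their part in the B cell ratios was not tested. Under 4 of the alternative settings the B cell ratio was past that limit, and under 2 each the cycling and the keratin-low stromal ratios were past it in the higher direction. Of the members counted in B cells, Il1r2 was past the limit, at 0.574 (0.296–1.07) on 34 and 16 UMIs, where 13.6% of all genes were, and at 0.721 with whole clusters as types it was not.

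Il1r1, the gene of the signalling receptor, was a stromal gene. Keratin-low stromal cells had 327 CPM (322–332) on LFD and 457 CPM (449–464) on HFD. Keratin-high mesothelial cells had 202 CPM (193–210) and 286 CPM (278–293), and cycling stromal cells 242 CPM (234–249) and 315 CPM (306–325). In fibroblastic progenitors the order of the diets was the opposite, with 326 CPM (306–346) on LFD and 197 CPM (186–209) on HFD. On LFD the intervals of keratin-low stromal cells and fibroblastic progenitors overlapped at the top, and on HFD fibroblastic progenitors were the lowest of the 4.

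The Il1r1 ratio was 1.40 (1.37–1.43) in keratin-low, 1.42 (1.35–1.49) in keratin-high and 1.30 (1.25–1.36) in cycling stromal cells, none of them past 1.5-fold. The median gene was itself higher on HFD by 0.10, 0.12 and 0.14 on the log2 scale in these types, and relative to it the Il1r1 ratios were 1.30, 1.30 and 1.19. Adipocyte markers summed to 26.0 CPM on LFD and 7.31 CPM on HFD in keratin-low cells (6 and 4 of 6 detected) and to 23.5 and 7.73 CPM in cycling cells (5 and 3 of 6), and their part in these ratios was not tested. In keratin-high cells dendritic markers summed to 48.6 and 96.7 CPM (9 and 7 of 11) and fibroblastic markers to 608 and 915 CPM (11 and 12 of 12). Macrophage markers there summed to 150 and 95.4 CPM (all 11), and the part of these was not tested either. Mesothelial markers summed to 251 and 460 CPM in keratin-low and to 683 and 1224 CPM in cycling cells (all 12 detected in each). Among non-cycling cells with like numbers of these markers Il1r1 was higher on HFD by 1.25 to 1.56 times, and in cycling cells the part of these markers was not tested. Of the members counted in each, 1 of 7 was past the limit in keratin-low stromal cells (Il1b, described above, against 13% of all genes), 0 of 6 in keratin-high (11.4% of all genes) and 0 of 6 in cycling cells (11.8% of all genes). The keratin-low cells of the libraries came from different clusters, 61.1% from cluster 1 and 25.5% from cluster 4 on LFD and 80.4% from cluster 0 on HFD, while of the keratin-high cells 68.8% on LFD and 97.2% on HFD came from cluster 0. With whole clusters as types, cluster 0 could not be named, only 251 HFD cells were keratin-low, and the keratin-low Il1r1 ratio was 1.10.

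Outside the stroma, Il1r1 in endothelial cells was at 53.96 CPM (46.8–61.9) on LFD and 32.8 CPM (26.2–40.7) on HFD, above the 8.98 and 9.40 CPM that free stromal RNA would give. The ratio was 0.609 (0.466–0.790), and relative to the median gene, which was higher by 0.15 on the log2 scale in endothelial cells, it was 0.548. It was 1 of the 2 members past the limit among 4 counted in endothelial cells, where 24.1% of all genes were past it. Casp1, at 1.41 (0.885–2.24), was past it with the stricter cell filter (1.73) in these cells. Their immediate early genes summed to 4483 CPM on LFD and 6973 CPM on HFD. Mural markers went from 44.3 to 201 CPM (9 and 10 of 10 detected), erythroid markers from 784 to 1400 CPM (all 5 detected) and cycling markers from 632 to 293 CPM (all 8 detected), and the part of these in the endothelial ratios was not tested. In macrophages (10.1 and 7.95 CPM) and B cells (9.91 and 9.88 CPM) Il1r1 was at the level predicted for free RNA, 10.4 and 7.22 CPM in macrophages and 10.5 and 7.64 CPM in B cells, so no expression of their own was detectable.

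Il1r2, the gene of the decoy receptor, was found in myeloid and stromal cells alike. Neutrophils had 313 CPM (238–405) on LFD and 802 CPM (589–1067) on HFD, on 58 and 47 UMIs. Dendritic cells had 211 CPM (171–257) on LFD and 77.0 CPM (56.1–103) on HFD, on 98 and 45 UMIs, an LFD interval that overlapped that of neutrophils. The diets thus stood in opposite order in these cells, with ratios of 2.56 (1.71–3.83) in neutrophils and 0.365 (0.251–0.525) in dendritic cells. In neutrophils 36.6% of all counted genes were past 1.5-fold either way, and the median gene was higher on HFD by 0.18 on the log2 scale, relative to which the Il1r2 ratio was 2.26. The 10 neutrophil markers, all detected in both libraries, summed to 160386 CPM on LFD and 87428 CPM on HFD in neutrophils, and the immediate early genes to 5038 and 7270 CPM, and their part in the neutrophil ratios was not tested. In dendritic cells 19.1% of genes were past the limit. B cell markers in dendritic cells summed to 19.4 and 65.0 CPM (3 and 2 of 10 detected), and their part in the dendritic ratios was not tested.

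The leading genes of the dendritic cells included Xcr1, Clec9a, Itgae and Flt3. On LFD their Il1r2 was at 241 CPM (180–316) in cells with and 184 CPM (135–246) in cells without an Il1b UMI, and on HFD at 58.4 CPM (35.2–91.2) and 100.2 CPM (65.5–147), with overlapping intervals in each library. An Il1r2 UMI was found in 62.9% of dendritic cells on LFD and 36.1% on HFD, at medians of 7341 and 7917.5 UMIs, and thinned to 1000 UMIs in 16.1% (8.02–27.7%) and 6.94% (2.29–15.5%). Macrophages, the other large myeloid type, had 9.59 and 2.98 CPM on 20 and 9 UMIs. ILC2 had 16 UMIs on LFD and 2 on HFD, a ratio of 0.167 (0.0186–0.711) that rested on fewer than 50 UMIs.

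In the stroma, Il1r2 was at 47.4 CPM (45.5–49.3) and 47.6 CPM (45.1–50.1) in keratin-low cells, where its ratio was 1.00 (0.940–1.07). Keratin-high cells had 28.8 CPM (25.7–32.2) and 24.1 CPM (22.1–26.3), and cycling cells 49.997 CPM (46.7–53.5) and 40.7 CPM (37.3–44.3). Fibroblastic progenitors had 59.0 CPM (50.9–68.1) on LFD and 23.8 CPM (19.97–28.1) on HFD. Set against Il1r1, the decoy was lower on HFD in all 4 types. There were 0.145 (0.139–0.151) Il1r2 UMIs per Il1r1 UMI on LFD and 0.104 (0.0985–0.110) on HFD in keratin-low cells, 0.143 (0.126–0.161) and 0.0845 (0.0769–0.0925) in keratin-high cells, 0.207 (0.192–0.223) and 0.129 (0.118–0.141) in cycling cells, and 0.181 (0.154–0.212) and 0.121 (0.100–0.144) in fibroblastic progenitors. No pair of these intervals overlapped.

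Il1rap, the gene of the shared co-receptor, was highest in neutrophils at 157 CPM (105–225) on LFD and 222 CPM on HFD, on 29 and 13 UMIs. Next came the stroma, with 19.7 CPM (18.5–20.9) and 18.2 CPM (16.7–19.8) in keratin-low cells, 23.6 CPM (21.3–26.0) and 16.7 CPM (14.6–19.1) in cycling cells, and 15.4 CPM (13.1–17.9) and 12.9 CPM (11.4–14.5) in keratin-high cells. Macrophages had 13.4 and 9.28 CPM. Its ratio of 0.710 (0.5999–0.838) in cycling cells was past the limit, at 0.646, relative to the median gene.

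Il18 and Il18bp, in contrast to Il1b, were found mainly in stromal cells, which held 87.9% and 84.7% of all Il18 UMIs and 88.4% and 87.3% of all Il18bp UMIs. Both were highest in keratin-high mesothelial cells. Il18 was there at 99.6 CPM (93.7–106) on LFD and 112 CPM (107.6–117) on HFD, against 62.2 CPM (60.0–64.3) and 69.9 CPM (66.9–73.0) in keratin-low and 44.2 CPM (41.1–47.5) and 53.3 CPM (49.5–57.4) in cycling cells. Il18bp was at 57.9 CPM (53.5–62.7) and 68.6 CPM (65.0–72.2) in keratin-high, 32.7 CPM (31.2–34.3) and 37.6 CPM (35.4–39.9) in keratin-low and 24.1 CPM (21.8–26.6) and 30.6 CPM (27.7–33.7) in cycling cells. Their ratios in these types lay between 1.12 and 1.27, and relative to the median gene between 1.04 and 1.15, so the summed levels of these types differed little between the libraries. Among non-cycling cells the Il18 ratio ran from 0.670 in cells with 0 mesothelial markers to 1.25 in cells with 9 to 12, as given below. In fibroblastic progenitors it was 0.571. With whole clusters as types the keratin-low ratio of Il18 was 0.888.

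Where these UMIs lay differed more than the summed levels. The share of keratin-high cells was 7.07% on LFD and 14.0% on HFD, and they held 18.2% of Il18 and 19.5% of Il18bp UMIs on LFD and 38.3% and 41.5% on HFD. These cells were called by the number of markers detected, and cells were deeper on HFD. Medians on LFD and HFD were 11651 and 16718 UMIs in keratin-low and 13944 and 16856.5 UMIs in keratin-high cells. The part of depth in these shares was not tested. Il18bp UMIs per Il18 UMI were 0.526 (0.496–0.558) on LFD and 0.537 (0.499–0.579) on HFD in keratin-low, 0.582 (0.526–0.643) and 0.611 (0.572–0.653) in keratin-high and 0.545 (0.482–0.616) and 0.573 (0.506–0.648) in cycling cells. Fibroblastic progenitors had more, 0.767 (0.532–1.10) and 0.960 (0.685–1.34), and on HFD their interval lay above those of the other stromal types. Endothelial cells had Il18bp almost alone, at 21.6 CPM (17.2–26.9) on LFD and 24.5 CPM (18.8–31.4) on HFD, with 20.3 (7.61–76.1) and 20.7 (6.75–103) Il18bp UMIs per Il18 UMI. B cells had the reverse, with Il18 at 33.3 CPM (28.2–39.1) and 31.0 CPM (25.6–37.3) and 0.0743 (0.0363–0.137) and 0.0973 (0.0473–0.181) Il18bp UMIs per Il18 UMI. In macrophages Il18 was at 18.7 CPM (13.3–25.6) and 18.6 CPM (14.0–24.1).

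**Figure D3:**
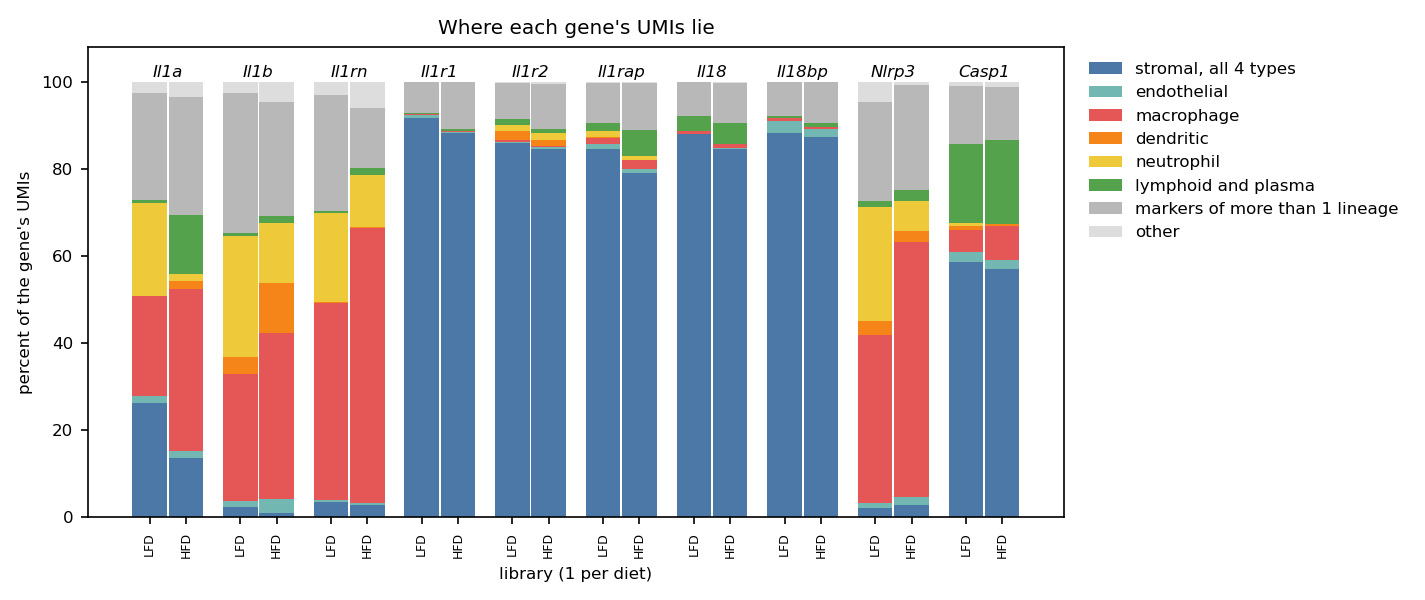
Percent of the UMIs of each gene that lay in each group of cell types, per library, with grey for cells that carried markers of more than 1 lineage and for other cells. Stromal types held 91.7% and 88.2% of Il1r1 but 2.44% and 0.914% of Il1b, and cells with markers of more than 1 lineage held 32.3% and 26.1% of Il1b.

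The rise of Il18 and Il18bp towards mesothelial cells was graded. Non-cycling, non-fibroblastic stromal cells were placed in 5 bins by how many of 12 mesothelial markers, such as Krt18, Upk3b and Msln, they held. From the bin with 0 to the bin with 9 to 12 markers, Il18 went from 43.2 CPM (40.0–46.7) to 115 CPM (104–128) on LFD and from 29.0 CPM (21.4–38.3) to 145 CPM (135–154) on HFD. Il18bp went from 21.0 to 69.6 CPM on LFD and from 18.9 to 84.6 CPM on HFD. Each step was upward in both libraries. From the first to the last bin the HFD to LFD ratios of Il18 were 0.670 (0.491–0.897), 0.909, 1.02, 1.06 and 1.25 (1.10–1.42). Those of Il18bp were 0.900, 0.954, 0.935, 1.16 (1.03–1.31) and 1.22 (1.03–1.44). Bins with more markers also held deeper cells on LFD, with medians from 10594 to 14749.5 UMIs, while on HFD medians were 9478 in the first bin and between 16367 and 17456.5 in the others.

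The receptors had the opposite slope. Il1r1 went from 352 CPM (343–362) in the first to 158 CPM (144–173) in the last bin on LFD, and on HFD it was at 473, 515, 426, 321 and 198 CPM over the 5 bins. Il1r2 went from 55.8 CPM (52.1–59.7) to 21.8 CPM (16.8–27.7) on LFD and from 52.0 CPM (41.7–64.1) to 11.7 CPM (9.13–14.8) on HFD. Within the bins Il1r1 was higher on HFD by 1.34, 1.56, 1.44, 1.47 and 1.25 times, each with an interval above 1, so the higher Il1r1 of HFD stroma was also present among cells with like numbers of mesothelial markers. Il1r2 ratios in the bins ran from 1.15 (1.03–1.28) in cells with 1 or 2 markers to 0.538 (0.378–0.766) in cells with 9 to 12.

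**Figure D4:**
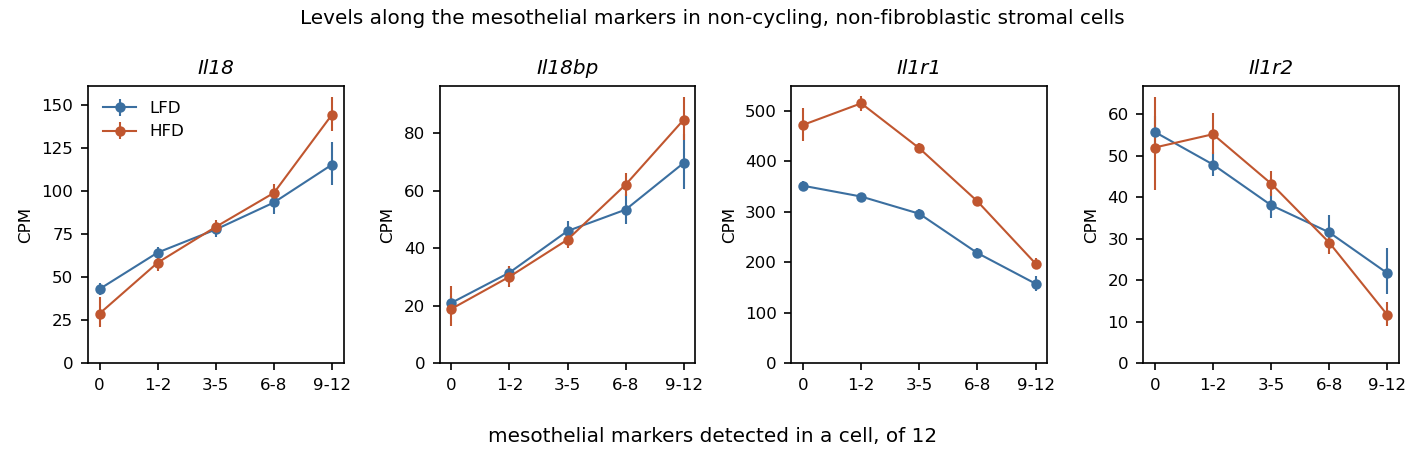
CPM of Il18, Il18bp, Il1r1 and Il1r2 in non-cycling, non-fibroblastic stromal cells by the number of 12 mesothelial markers detected in a cell, for the LFD and HFD libraries with 95% counting intervals. Il18 reached 115 and 145 CPM in cells with 9 to 12 markers, where Il1r1 was at its lowest, 158 and 198 CPM.

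Fibroblastic progenitors (Pi16, Dpp4, Cd55 and other markers) were the stromal type in which most members were lower on HFD. Of the 6 counted, Il1r1 (0.606, 0.556–0.659), Il1r2 (0.403, 0.321–0.505), Il1rap (0.659, 0.474–0.920), Il18 (0.571, 0.408–0.800) and Casp1 (0.622, 0.402–0.967) were past 1.5-fold, and Il18bp was at 0.715 (0.497–1.03). Over the 9581 genes counted in this type 20.5% were past the limit either way and 6.18% were in the lower direction, and the median ratio was 0.614 for the members and 1.04 for all genes. The 12 markers of this type, all detected, summed to 2823 CPM on LFD and 6611 CPM on HFD, and adipocyte markers to 35.6 and 13.9 CPM (3 of 6 detected in each library). Mural markers summed to 99.0 and 50.9 CPM (9 of 10 in each), neutrophil markers to 73.7 and 25.9 CPM (7 and 6 of 10) and mesothelial markers to 23.4 and 12.2 CPM (9 of 12 in each). Dendritic markers went the other way, from 33.4 to 55.2 CPM (5 of 11 in each). The part of all these in the ratios was not tested. On LFD 64.2% of these cells came from cluster 7 and 31.9% from cluster 1, whereas on HFD 96.6% came from cluster 7. With whole clusters as types, Il1r2 (0.476) and Il1rap (0.624) were still past the limit, while Il1r1 was at 0.704, Casp1 at 0.858 and Il18 at 1.04. Il1rap was no longer past it as a mean over cells (0.681), with the wider margin (0.669) or without the deepest cells (0.727), nor was Casp1 with the stricter cell filter (0.673).

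**Figure D5:**
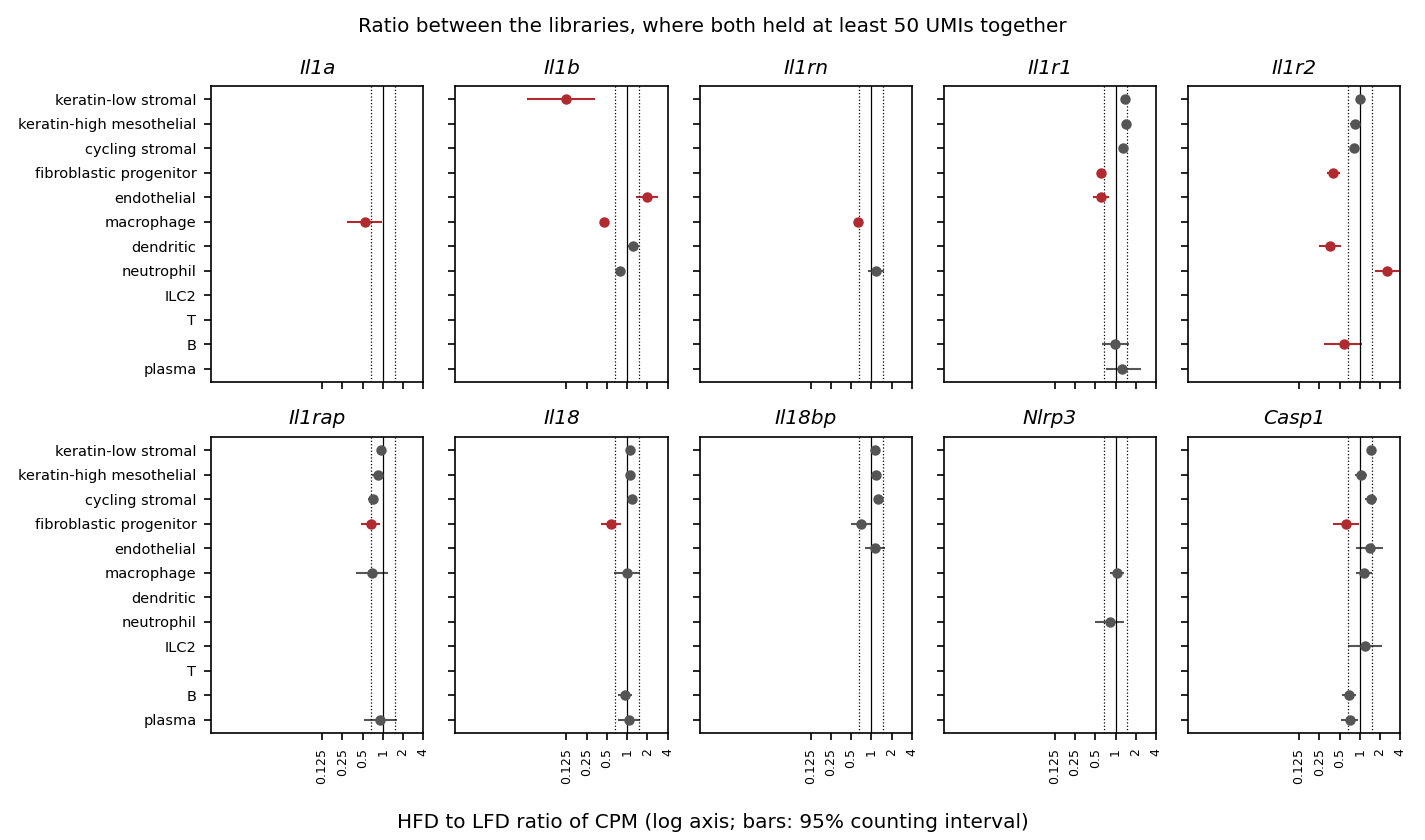
HFD to LFD ratio of CPM of each gene in each cell type with at least 50 UMIs over both libraries, on a log axis with 95% counting intervals; dotted lines mark 1.5-fold and red points lie past it. In total 14 of 51 ratios lay past the lines, 5 of them in fibroblastic progenitors and 3 in macrophages.

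In the other types, plasma cells had 0 of 4 counted members past the limit (11.5% of all genes), ILC2 0 of 1 (28% of all genes) and T cells had no member with enough UMIs. In plasma cells Casp1 was past it with clusters as types (0.655) and with the wider margin (0.659), and Il1r1 as a mean over cells (1.59). Casp1 was the member counted in ILC2, at 43.1 CPM (28.7–62.3) and 51.5 CPM (33.3–76.0). These cells hold the receptor of another IL-1 family cytokine, IL-33, whose gene Il1rl1 was at 667 CPM on LFD and 766 CPM on HFD in ILC2. Il33 itself, named like Il1rl1 after its values were seen, was a stromal gene, at 136 and 100.5 CPM in keratin-low cells and 241 and 163 CPM in fibroblastic progenitors, with ratios of 0.739 (0.708–0.772) and 0.676 (0.614–0.745), the latter just inside the limit.

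Around the 10 genes, 4 lists of the same pathway were counted, other family ligands and receptors (13 genes), adaptors and kinases (14), NF-kB factors and feedback (9), and inflammasome and release (15). Of the adaptors and kinases, 0 of 14 were past the limit in keratin-low (13% of all genes) and cycling stromal cells (11.8%), 1 of 14 in keratin-high cells (11.4%), 0 of 12 in macrophages (11.7%), 0 of 13 in plasma cells (11.5%), 1 of 12 in B cells (13.6%), 3 of 13 in fibroblastic progenitors (20.5%), 2 of 5 in dendritic cells (19.1%) and 1 of 2 in ILC2 (28%). In endothelial cells 4 of 13 were higher, where 24.1% of all genes were past the limit either way, among them Tab2 (1.80, 1.45–2.24), a scaffold of the TAK1 kinase, and Irak4 (1.68, 1.17–2.42). The highest there was Zc3h12a (1.95, 1.36–2.80), and 0 genes of the lists were lower in endothelial cells. The NF-kB list had 2 of 9 higher there, the inflammasome list 1 of 7 and the family list 0 of 1. In the NF-kB list 5 of 9 were higher in ILC2, with Zc3h12a (2.34, 1.65–3.36) and Nfkbiz (2.29, 1.94–2.70) at the top, and 0 were lower. Elsewhere 2 of 9 were higher in keratin-low (13% of all genes past the limit), keratin-high (11.4%) and B cells (13.6%). In fibroblastic progenitors (20.5%) 2 of 9 were lower, and macrophages (11.7%) and cycling stromal cells (11.8%) had 0 of 9. Dendritic cells had 2 of 7 higher (19.1%), neutrophils 1 of 3 (36.6%) and T cells 2 of 5 (24.3%). Plasma cells had 1 of 9 higher and 2 lower (11.5%). Zc3h12a encodes an RNase that degrades inflammatory transcripts. Over the 4 lists Txnip was the highest in ILC2 (2.67, 1.48–5.003). Of the inflammasome list 2 of 6 were higher there, and of the family list 1 of 3. The median ratio of the NF-kB list in ILC2 was 1.72 against 1.04 for all genes. Of all genes counted in ILC2, 28% were past the limit either way, and 542 of 3048 were past it in the higher direction. The immediate early genes summed to 4140 CPM on LFD and 5322 CPM on HFD. Of the ILC2, 92.3% on LFD and 81.7% on HFD came from cluster 12, and another 18.3% on HFD came from cluster 13, which held the T cells. Natural killer cell markers summed to 60.1 and 148 CPM in ILC2 (3 of 6 detected in each library). B cell markers summed to 123 and 30.9 CPM (5 and 2 of 10) and neutrophil markers to 95.5 and 202 CPM (4 and 1 of 10). The part of these in the ILC2 ratios was not tested.

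In keratin-low stromal cells Naip2 (2.26, 1.51–3.41), Nfkb1 (1.98, 1.92–2.04) and Il18r1, a receptor subunit for IL-18 (1.95, 1.78–2.14), were the highest, and Casp4, which encodes the caspase that senses bacterial lipopolysaccharide inside cells (0.607, 0.573–0.642), and P2rx7, the ATP-gated channel gene (0.639, 0.526–0.773), were the 2 lower genes. Of the family list 1 of 7 was higher, and of the inflammasome list 1 of 9 was higher and 2 lower, against 13% of all genes past the limit. In keratin-high cells Txnip (1.99, 1.78–2.22), Naip2 (1.66, 0.872–3.36) and Rel (1.62, 1.35–1.95) led and none was lower. There 1 of 6 family and 2 of 9 inflammasome genes were higher, against 11.4% of all genes past the limit. In fibroblastic progenitors Txnip, Irak3 and Traf6 were the only ones higher, at 3.40 (2.89–4.03), 1.53 (1.16–2.02) and 1.505 (0.846–2.80), and Gsdme (0.536), Irak2 (0.539) and Tnfaip3 (0.550) were the lowest of 5. The inflammasome list had 1 of 8 higher and 2 lower there, and the family list 0 of 2 past the limit. Of all genes 20.5% were past it either way and 6.18% in the lower direction. In macrophages Mefv, the pyrin gene, was the single gene of these lists past the limit, at 37.4 CPM on LFD and 14.6 CPM on HFD, a ratio of 0.390 (0.263–0.571). It was 1 of 13 inflammasome genes counted there, where 11.7% of all genes were past the limit and 3.5% in the lower direction. In cycling stromal cells Il18r1 was higher (1.62, 1.44–1.82) and P2rx7 lower (0.573, 0.363–0.888). They were 1 of 6 family and 1 of 8 inflammasome genes counted there, against 11.8% of all genes past the limit.

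Among immune cells, Tnfaip3, the gene of the NF-kB inhibitor A20, was higher in neutrophils (2.07, 1.30–3.25) and in T cells (2.66, 1.81–3.98), where 24.3% of all genes were past the limit. In T cells the summed level of 6 natural killer cell markers was 1678 CPM on LFD, with 5 detected, and 291 CPM on HFD, with 4 detected, and the part of this in the T cell ratios was not tested. Dendritic cells had Nfkbiz (2.12, 1.15–4.13), Myd88 (1.77, 1.10–2.90) and Rel (1.55) higher and Txnip (0.590, 0.388–0.890) and Ikbkb (0.648) lower. Casp4 was lower in neutrophils (0.438, 0.192–0.883), B cells (0.558, 0.431–0.718) and plasma cells (0.643). Of the inflammasome list, 1 of 2 counted genes was lower in neutrophils (36.6% of all genes past the limit) and in T cells (24.3%). Dendritic cells had 1 of 4 lower (19.1%), plasma cells 1 of 10 (11.5%) and B cells 1 of 9 lower and 1 higher (13.6%). The family list had 0 of 1 counted genes past the limit in neutrophils, T, B and plasma cells. Also past the limit were Nfkbiz (1.71) and Pycard, the gene of the inflammasome adaptor ASC (0.590, 0.413–0.834), in T cells, Naip2 (1.93, 1.19–3.19), Traf6 (1.80) and Rel (1.68) in B cells, and Rel (1.88, 1.15–3.26), Relb (0.537) and Nfkb2 (0.610) in plasma cells. Plasma cells came from different clusters, 93.2% from cluster 10 on LFD and 51.8% from cluster 8 and 47.1% from cluster 9 on HFD. Il1f9, the gene of IL-36γ, was at 1031 CPM on LFD and 1382 CPM on HFD in neutrophils, a ratio of 1.34 (1.02–1.75) within the limit, and is named after its values were seen.

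The genes with a pattern most like that of a member were ranked by Pearson correlation of log2(CPM + 1) over the 24 points of 12 types and 2 libraries, among 13073 genes. These points share libraries and cell classes, so the values are descriptions. For Il1b they were Gm34084 (0.97), Alox5ap (0.97) and Cd300a (0.96), for Il1rn Ccl3 (0.97), Clec5a (0.96) and Clec4e (0.96), and for Il1r1 Vcam1 (0.97), Cyp1b1 (0.96) and Gata6 (0.96). For Il1r2 and Il18 the highest values were lower. Il1r2 was most like S100a11 (0.83), Myd88 (0.79) and Ifitm1 (0.78), Il18 like Ptger3 (0.81), Pex2 (0.80) and Cryl1 (0.79), and Il18bp like Cdc42ep2 (0.95), Oasl2 (0.95) and Oplah (0.90). Among the members, Nlrp3 went with Il1b (0.90) and Il1rn (0.89), Il18bp went with Il1r1 (0.83), and Il18 and Il18bp were at 0.28, although both peaked in the same cells.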

How the data were processed

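Each deposited matrix gave, for every gene and barcode, a whole number of UMIs, counts that the authors made from 10x Genomics 3' v3 libraries and left without normalization, and the other deposited files named genes and barcodes. The submitters' processing notes name bcl2fastq 2.17.1.14, Cell Ranger 4.0.0, STAR, Seurat 4.1.0 and mm10. Tissue was digested with liberase before sorting. The members and lists were chosen with earlier results of these data known.

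Cells with at least 100 genes, 500 to 40000 UMIs and under 12.5% mitochondrial UMIs were kept, as in the study. A cell was typed by the list of markers with the highest score, a rule settled after the data were seen. The score was the share of markers detected less a floor (0.3 for plasma, 0.167 for stromal, 0 for other lists), rescaled. It had to reach 0.2 with at least 3 markers, and a cell was set aside if a second lineage reached 0.5 of that score. Also set aside were 151 LFD and 141 HFD cells below the minimum, and 38 and 54 cells with close scores for types of the same lineage. Stromal cells were keratin-high with at least 6 of 12 mesothelial markers, fibroblastic with at least 6 fibroblastic and at most 1 mesothelial marker, and cycling with at least 4 of 8 cycling markers. No doublet caller was run, since the marker rule sets mixed cells aside. Of all barcodes, 27 occurred in both libraries, 22 of them in kept cells and 3 of these with the same type in both. UMIs were summed per type and library. CPM have exact Poisson, shares exact (Clopper-Pearson) binomial and ratios exact conditional binomial 95% intervals. Reads per molecule were not used, and intervals leave out differences between mice and libraries. The limit for a count of 0 is 3 counts. Ratios of cell types were read with at least 50 UMIs over both libraries and 50 cells in each, against 1.5-fold, and set beside the share of all genes past it. Within macrophage subsets only the 50 UMIs were asked for. No test was possible with 1 library per diet, so no p-value is given. Named are all 10 members, the 3 highest and 3 lowest other pathway genes past 1.5-fold in a type, and the 3 genes most like a member. Il36a, Il36b, Il36g and Il36rn were read under older symbols. The monocyte list was used without 1 of its genes, which is not reported here. Free RNA was predicted from C1qa, C1qb and C1qc, S100a8 and S100a9, and Pdgfra, Wt1 and Lum. Alternatives were another scaling, a mean over cells, other cell filters, Leiden clusters (2000 variable genes less the members and the other pathway genes, 30 components, resolution 0.6) as types, a wider margin, the 5% deepest cells left out, and a minimum of 20 UMIs. Scripts were tested on simulated data, in Python 3.11.15 with numpy 2.4.6, scipy 1.17.1, pandas 2.3.3, scikit-learn 1.9.0 and leidenalg 0.10.2.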

Additional observations from a re-analysis of the deposited data

Results flagged for a closer look

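Ratios of HFD to LFD pointed in opposite directions between cell types for 5 genes, above 1 in 1 type and below 1 in another, each with a counting interval that left out 1, which is what drew attention to them. With 1 library per diet the difference between the types was not tested. Il1b had a ratio of 1.97 in endothelial cells and 0.124 in keratin-low stromal cells, the former carried by 3 cells per library and the latter resting on 58 and 4 UMIs. Il1r1 had a ratio of 1.42 in keratin-high mesothelial cells and 0.606 in fibroblastic progenitors, both on over 1000 UMIs per library. Il1r2 had a ratio of 2.56 in neutrophils and 0.365 in dendritic cells, both on between 45 and 98 UMIs per library. Il18 had a ratio of 1.21 in cycling stromal cells and 0.571 in fibroblastic progenitors. Casp1 had a ratio of 1.49 in cycling stromal cells and 0.622 in fibroblastic progenitors. The fibroblastic values of Il18 and Casp1 were 1.04 and 0.858 with clusters as types.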

How the results depend on the processing

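With the choices reported, 14 of 51 ratios were past 1.5-fold. The count was 16 with median-ratio scaling, 17 with a mean over cells, 12 with the stricter cell filter, 14 without mitochondrial and upper UMI limits, 16 with the wider margin, 14 without the deepest 5% of cells, 16 of 45 with clusters as types (10 of them among the 14) and 21 of 66 with a minimum of 20 UMIs. A ratio past 1.5-fold changed sign only with clusters as types, for Il1b in endothelial cells (0.105) and Il18 in fibroblastic progenitors (1.04), and the cause was not tested. The number of ratios that left their counting interval was 6 of 51 with median-ratio scaling, 4 as a mean over cells, 1 with the stricter filter, 1 with the wider margin and, beside the changed signs, 7 of 45 with clusters. Values outside it included Il1r1 in keratin-low stromal cells (1.30 with median-ratio scaling, 1.10 with clusters), Il18 in keratin-high mesothelial cells (1.04 with median-ratio scaling), Il1r1 in fibroblastic progenitors (0.704 with clusters) and Il1b in macrophages (0.504 as a mean over cells, 0.598 in lipid-associated and 0.720 in monocyte-type cells, the last pair added after seeing the data), again with the cause not tested. Of 308 alternative levels, 270 stayed within the interval of the reported one. The cluster alternative gave no keratin-high type, and cluster 0, with 951 LFD and 2806 HFD cells, was unnamed there, since its leading genes held more markers of another class than of its own. With a pseudocount of 5 CPM, all 3 genes most like Il1rn were shared, 2 of 3 for Il1r1, Il1r2 and Il18bp, and 1 of 3 for Il1b and Il18. No paired analysis was possible because each diet had 1 library. Depth limits Il1a, Il1rap in immune cells and all members in T cells and ILC2, whose few UMIs leave wide intervals.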

Other observations

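Cells with markers of more than 1 lineage, which entered no comparison, held 1322 of the Il1b UMIs of the LFD library and 542 of those of the HFD library. Of these UMIs, 92.4% and 90.2% lay in cells whose markers included those of macrophages, neutrophils or dendritic cells. In LFD, 104 cells with macrophage and stromal markers had Il1b at 281 CPM and 25 cells with endothelial and neutrophil markers had it at 1426 CPM. In HFD, 29 cells with endothelial and macrophage markers had 426 CPM and 55 with macrophage and stromal markers had 67.5 CPM. Il1r2 was at 185 CPM in 29 LFD cells with dendritic and stromal markers, near the 211 CPM of dendritic cells alone. Whether these are doublets or cells with a mixed identity was not tested.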
